A study of Mus musculus with 10 samples.

Results

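The 10 genes Cd3d, Cd3e, Cd3g, Cd8a, Cd8b1, Gzma, Gzmb, Itgae, Ccr9 and Cd160 are carried by T lymphocytes that live within the intestinal epithelium, and they were taken by symbol from a table of 45707 features, in which each symbol had 1 entry. RNA sequencing covered the jejunum of 5 controls (Vil-Cre) and of 5 animals that also carried NDI1 (Vil-Cre:NDI1), with 1 library per mouse and no pooling of animals. All 10 mice were male littermates aged 8 to 12 weeks, carried Villin-Cre, were fasted overnight for 16 to 18 h and received water by gavage, and the jejunum was collected 1 h later. The genotypes differ in NDI1, the yeast NADH dehydrogenase that bypasses mitochondrial complex I, which stood behind a lox-stop-lox sequence at ROSA26. Villin-Cre acts in the intestinal epithelium, so the lymphocytes described here are neighbours of the cells that were modified, and not cells in which Cre was directed. The jejunum was flushed of its contents and frozen as tissue, without sorting or separation of the epithelium from the lamina propria.

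Intraepithelial lymphocytes sit between enterocytes above the basement membrane. Many of them are CD8+ and carry either an alpha-beta or a gamma-delta T cell receptor, and the small intestine is rich in cells with the CD8 alpha-alpha homodimer, which lacks the beta chain. They store granzymes, are guided to the small intestine by the receptor Ccr9 and its ligand Ccl25, and are held at the epithelium by the integrin CD103, which binds E-cadherin on enterocytes. None of the 10 genes marks the epithelial location by itself, because lamina propria T cells and some innate lymphocytes express several of them.

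The values are normalized counts, which are the reads assigned to a gene divided by 1 size factor per library. Each library had 10145705 to 12371530 reads on genes. In the check of the labels, 0 or 1 read was assigned to NDI1 in each Vil-Cre library and 1002 to 2659 reads in each Vil-Cre:NDI1 library. The libraries did not all hold the same mix of tissue. The summed normalized count of 12 B cell and Peyer patch genes was 2540 in Vil-Cre 5 and 31.1 to 125 in the other 9 libraries, and that of 6 smooth muscle genes was 11841 in Vil-Cre 4 and 13681 in Vil-Cre:NDI1 1 against 17958 to 25195 in the other 8.

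The T cell receptor is assembled with the CD3 chains encoded by Cd3g, Cd3d and Cd3e, which lie together on mouse chromosome 9 (GRCm38). Cd3g (ENSMUSG00000002033, chr9:44969572-44980431, minus strand) and Cd3d (ENSMUSG00000032094, chr9:44981786-44987339, plus strand) are transcribed away from each other and are separated by 1354 bp, and Cd3e (ENSMUSG00000032093, chr9:44998740-45009627, minus strand) begins its annotated span 11400 bp beyond Cd3d. Cd8b1 (ENSMUSG00000053044, chr6:71322788-71337494) and Cd8a (ENSMUSG00000053977, chr6:71373427-71379173) form a pair on the plus strand of chromosome 6, 35932 bp apart. Gzma (ENSMUSG00000023132) is at chr13:113093825-113100981 and Gzmb (ENSMUSG00000015437) at chr14:56258838-56262260, both on the minus strand. Itgae (ENSMUSG00000005947) spans chr11:73090583-73147446 on the plus strand, Ccr9 (ENSMUSG00000029530) chr9:123678439-123784330 on the plus strand and Cd160 (ENSMUSG00000038304) chr3:96798763-96829351 on the minus strand. Coordinates are those of GENCODE M21.

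The 250 bases upstream of the RefSeq start site were read for 8 of the 10 genes from RefSeq on GRCm38.p6. Promoters are shown for Cd3d and Cd3g, whose start sites face each other, and for Gzma and Gzmb, the most abundant members. Capitals mark matches on either strand to 3 motifs of transcription factor families that act in T cells, namely RUNX (TGTGGT or ACCACA), ETS (AGGAAG or CTTCCT) and E-box (CACCTG or CAGGTG). None of these letter strings overlapped another within the 4 windows. The Cd3d window is chr9:44981536-44981785 on the plus strand, and the Cd3g, Gzma and Gzmb windows are chr9:44980432-44980681, chr13:113100982-113101231 and chr14:56262335-56262584 on the minus strand.
Cd3d: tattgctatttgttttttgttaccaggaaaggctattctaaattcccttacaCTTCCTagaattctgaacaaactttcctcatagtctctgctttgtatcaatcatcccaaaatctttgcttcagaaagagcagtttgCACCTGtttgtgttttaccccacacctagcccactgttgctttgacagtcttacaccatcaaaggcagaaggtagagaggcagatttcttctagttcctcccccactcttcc
Cd3g: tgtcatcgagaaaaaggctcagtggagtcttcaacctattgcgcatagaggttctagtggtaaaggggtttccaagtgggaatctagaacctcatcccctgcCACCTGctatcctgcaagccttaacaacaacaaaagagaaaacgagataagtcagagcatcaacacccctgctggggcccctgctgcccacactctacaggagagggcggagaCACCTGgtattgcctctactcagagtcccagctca
Gzma: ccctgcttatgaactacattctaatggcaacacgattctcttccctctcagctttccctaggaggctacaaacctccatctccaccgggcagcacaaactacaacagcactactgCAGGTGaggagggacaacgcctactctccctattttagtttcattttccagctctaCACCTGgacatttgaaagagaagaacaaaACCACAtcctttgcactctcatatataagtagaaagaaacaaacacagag
Gzmb: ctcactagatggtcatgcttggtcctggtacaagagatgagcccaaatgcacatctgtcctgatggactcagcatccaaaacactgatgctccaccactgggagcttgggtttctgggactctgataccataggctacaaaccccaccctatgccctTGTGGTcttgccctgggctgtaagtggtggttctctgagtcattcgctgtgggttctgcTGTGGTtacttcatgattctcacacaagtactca
Counted from the start site, Gzmb held RUNX letters at positions -93 and -34, and Gzma held them at position -50 on the opposite strand. Cd3g held E-box letters at -148 and -35, and Cd3d held them at -112. RUNX letters were found upstream of 3 of the 8 genes (Gzma, Gzmb and Cd160), ETS letters upstream of 4 and E-box letters upstream of 5. The 8 genes had 9 windows, because Cd160 has a further start site, and a gene was counted if any of its windows matched. The shares that follow are per single window. Over 32851 promoters of the same length, 14.0% held the RUNX letters, 29.5% the ETS letters and 17.2% the E-box letters. The Cd8a window held none of the 3 strings. A match describes the letters only.

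To ask whether epithelial NDI1 was accompanied by a different level of these transcripts, the genotypes were compared gene by gene. None of the 10 genes was called between the genotypes (limma over 14301 tested features, adjusted p from 0.998 to 0.999), and the values of the 2 genotypes overlapped for every one of them. Of all tested features, 0.00699% were called, which is NDI1 itself. On recovered reads, DESeq2 called 0.179% and edgeR 0.007% of features and neither called any of the 10. At an unadjusted p under 0.05 the count was also 0 of 10 in limma, in DESeq2 and in edgeR, where limma gave 4.23% of the mouse genes tested. Groups of 5 mice did not overlap for 0.692% of mouse genes. Within a genotype, the highest mouse was 2.01 times (Cd3e) to 4.203 times (Gzmb) the lowest among controls and 2.73 times (Ccr9) to 6.92 times (Gzmb) among Vil-Cre:NDI1 mice, as the plot of member values shows. In bulk tissue, fewer cells of a type and less RNA per cell cannot be told apart.

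**Figure D1:**
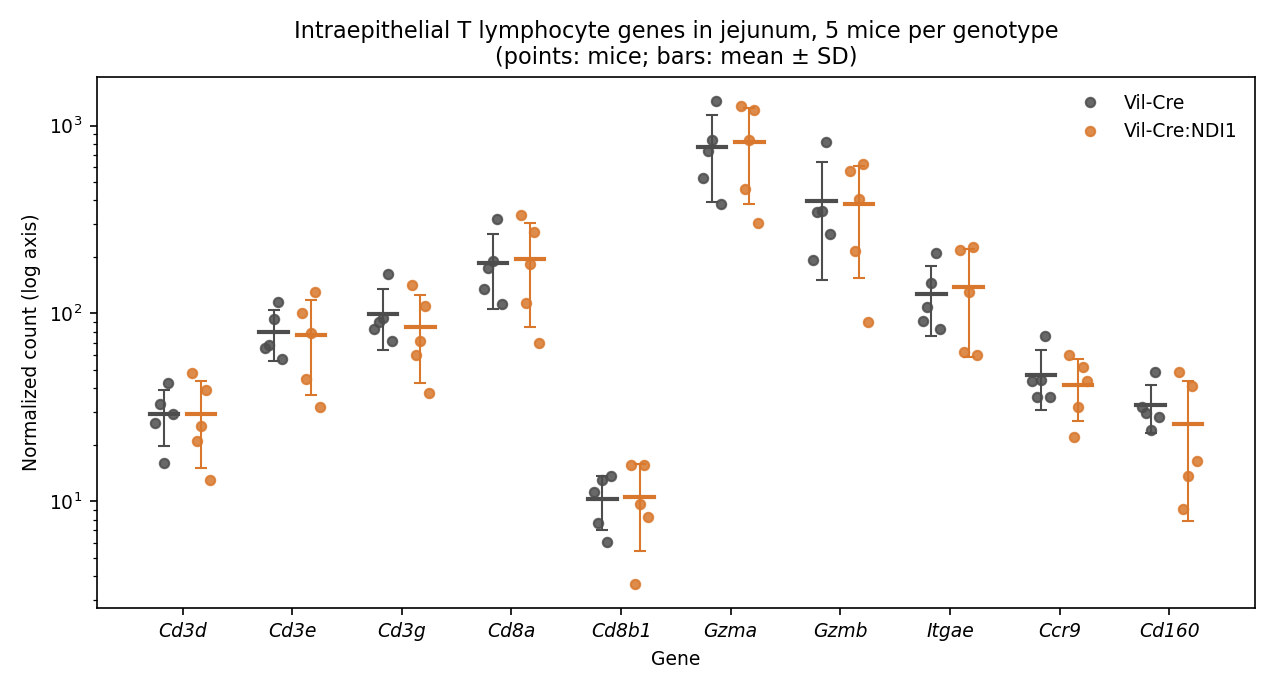
Normalized counts of the 10 genes (log axis) in 5 Vil-Cre (grey) and 5 Vil-Cre:NDI1 (orange) mice. Points are mice, and bars with whiskers are the mean ± SD. The genotypes overlap for each gene, and the widest spread among Vil-Cre mice is that of Gzmb, from 193 to 813.

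Cd3g encodes the CD3 gamma chain, which passes the signal of the T cell receptor inward. Its normalized count was 82.2, 89.7, 94.2, 162 and 70.9 in Vil-Cre 1 to 5 and 142, 60.1, 71.7, 109.7 and 37.6 in Vil-Cre:NDI1 1 to 5. The highest value belonged to a control and the next to an NDI1 mouse. The mean was 99.8 ± 35.8 (SD, n = 5) in controls and 84.2 ± 41.6 in the NDI1 group (SD, n = 5), a log2 fold change of -0.33 (SE 0.34, 95% interval -1.08 to 0.42, limma).

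Cd3e encodes the CD3 epsilon chain. Its normalized counts were 65.4, 67.8, 93.2, 115 and 57.3 in Vil-Cre 1 to 5 and 99.98, 44.6, 78.4, 130.2 and 31.7 in Vil-Cre:NDI1 1 to 5. Both the highest and the lowest of the 10 mice were Vil-Cre:NDI1 animals. The antisense gene Gm48719, which was not used here, shares 135 exon bases with Cd3e. The log2 fold change was -0.18 (SE 0.36, 95% interval -0.98 to 0.62). Cd3d, the delta chain, was less abundant, with 26.2, 32.8, 16.03, 42.5 and 29.1 in Vil-Cre 1 to 5 and 48.0, 21.0, 25.2, 39.2 and 12.9 in Vil-Cre:NDI1 1 to 5. Its means were 29.3 ± 9.64 and 29.2 ± 14.2 (SD, n = 5 each), and the log2 fold change was -0.08 (SE 0.37, 95% interval -0.89 to 0.74). Per kilobase of exon, the mean over 10 mice was 28.1 normalized counts for Cd3g, 19.2 for Cd3e and 16.1 for Cd3d.

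CD8 binds class I molecules beside the receptor, and its alpha chain is made from Cd8a. Cd8a was counted at 135, 174, 189, 318 and 113 in Vil-Cre 1 to 5 and at 333, 113, 184, 272 and 69.3 in Vil-Cre:NDI1 1 to 5. Vil-Cre:NDI1 1 and Vil-Cre 4 were highest and Vil-Cre:NDI1 5 was lowest. The mean was 186 ± 80.1 in controls and 194 ± 109 in Vil-Cre:NDI1 mice (SD, n = 5 each), while the log2 fold change was -0.06 (SE 0.41, 95% interval -0.96 to 0.85), so mean and log2 value differ in sign.

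Cd8b1, the beta chain that conventional CD8+ T cells add to the receptor, was close to the filter of 10. Its normalized counts were 11.2, 7.66, 13.02, 6.07 and 13.6 in Vil-Cre 1 to 5 and 15.7, 3.64, 9.68, 15.7 and 8.22 in Vil-Cre:NDI1 1 to 5, from 4 to 16 reads per library, and it passed the filter with exactly 5 mice at or above 10. For the 4 reads of Vil-Cre:NDI1 2, the exact 95% Poisson interval of the normalized count was 0.993 to 9.33, and such intervals cover counting error only. The log2 fold change was -0.05 (SE 0.42, 95% interval -0.97 to 0.87). Per kilobase of exon, Cd8b1 stood at 16.4 ± 9.47% of Cd8a in Vil-Cre mice (from 4.67% to 29.6%) and at 15.1 ± 8.16% in Vil-Cre:NDI1 mice (from 7.91% to 29.1%, SD, n = 5 each). The ratio was lowest in Vil-Cre 4, where Cd8a was high and 6 reads of Cd8b1 were counted. It was highest in Vil-Cre 5 (29.6%, 14 reads), the library with the B cell and Peyer patch transcripts. Vil-Cre:NDI1 5 was nearly as high (29.1%, 7 reads), with a B cell and Peyer patch sum of 44.6.

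Granzymes A and B are serine proteases that killer lymphocytes release from granules, and their genes had by far the highest levels of the 10. Gzma was counted at 526, 729, 834, 1351 and 382 in Vil-Cre 1 to 5 and at 1268, 457, 839, 1203 and 302 in Vil-Cre:NDI1 1 to 5. Vil-Cre 4, Vil-Cre:NDI1 1 and Vil-Cre:NDI1 4 exceeded all the other mice. The mean was 764 ± 372 in controls and 814 ± 432 in Vil-Cre:NDI1 mice (SD, n = 5 each), with a log2 fold change of 0.02 (SE 0.43, 95% interval -0.92 to 0.96). Reads of the granzyme family may be shared between near-identical stretches.

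Gzmb had the widest range of the 10 genes. It was counted at 193, 348, 353, 813 and 265 in Vil-Cre 1 to 5 and at 574, 216, 407, 626 and 90.4 in Vil-Cre:NDI1 1 to 5. The highest mouse was 8.99 times the lowest. The log2 fold change was -0.17 (SE 0.52, 95% interval -1.32 to 0.98). As a share of Gzma, Gzmb values stood at 51.3 ± 13.4% in controls and 44.6 ± 8.55% in Vil-Cre:NDI1 mice (SD, n = 5 each), and the ranges of 36.8% to 69.5% and 30.0% to 52.0% overlapped. Per kilobase of exon, the mean over 10 mice was 784 normalized counts for Gzma and 271 for Gzmb, against 52.3 for Cd8a.

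Itgae encodes CD103, the alpha chain of the integrin that binds E-cadherin. Its normalized counts were 91.6, 108, 145, 210.3 and 82.6 in Vil-Cre 1 to 5 and 217, 62.0, 129.7, 226 and 59.9 in Vil-Cre:NDI1 1 to 5. The 2 highest and the 2 lowest of the 10 mice were all Vil-Cre:NDI1 animals. The mean was 128 ± 52.1 in controls and 139 ± 80.5 in Vil-Cre:NDI1 mice (SD, n = 5 each), with a log2 fold change of -0.02 (SE 0.41, 95% interval -0.92 to 0.89), again of opposite sign to the difference in means.

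Ccr9 encodes the chemokine receptor that draws T cells to the small intestine. It was counted at 43.9, 36.1, 44.1, 75.8 and 35.9 in Vil-Cre 1 to 5 and at 59.8, 21.9, 32.0, 51.9 and 43.4 in Vil-Cre:NDI1 1 to 5. Vil-Cre 4 was highest and Vil-Cre:NDI1 2 was lowest. The log2 fold change was -0.20 (SE 0.30, 95% interval -0.86 to 0.47). The exons of Ccr9 overlap those of Slc6a20a on the opposite strand over 22 bases and those of the non-coding Gm17200 on the same strand over 269 bases. They also share 1932 bases with AC165425.1 on the opposite strand, which was at 0 to 3.01 normalized counts. Slc6a20a was at 1749 to 3451 normalized counts and Gm17200 at 17.6 to 50.5, and the strand setting of the counting is not given in the sources used here, so the Ccr9 values are uncertain.

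Cd160 encodes a receptor of cytotoxic and intraepithelial lymphocytes that binds HVEM, the product of Tnfrsf14. Its normalized counts were 31.8, 29.5, 24.0, 48.5 and 28.2 in Vil-Cre 1 to 5 and 49.0, 9.11, 13.6, 41.1 and 16.4 in Vil-Cre:NDI1 1 to 5. Of the 5 Vil-Cre:NDI1 mice, 3 lay below all controls and 1 lay above them all. The mean was 32.4 ± 9.44 in controls and 25.8 ± 17.96 in Vil-Cre:NDI1 mice (SD, n = 5 each), and the log2 fold change of -0.55 (SE 0.44, 95% interval -1.51 to 0.41) was the largest of the 10 in size. Cd160 shares 68 exon bases with Pdzk1 on the opposite strand, which stood at 3039 to 7068 normalized counts, so its values are uncertain if the counting did not use strand.

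Across the 10 genes, 9 fitted log2 fold changes were below 0 and 1 was above, where 48.8% of mouse genes were below 0. The median log2 fold change was -0.12 for the 10 genes and 0.01 for all mouse genes tested. The exact permutation test over the 252 assignments of mice, which can go down to 0.00794, gave two-sided p from 0.484 for Cd160 to 1.0 for Cd3d. The 95% interval lay within 2-fold either way for 7 of the 10 genes, and it reached beyond a 2-fold lower level for Cd3g, Gzmb and Cd160. The 10 genes are read in the same mice and vary together, so their directions are not independent of one another. The number of the 10 below 0 was 4 without Vil-Cre:NDI1 2, 4 without Vil-Cre:NDI1 5 and 5 without Vil-Cre 4. It was 5 with DESeq2 and 2 with DESeq2 on the 8 libraries without Vil-Cre 3 and Vil-Cre 4. On leaving out other single mice it was 7 without Vil-Cre 3, 9 without Vil-Cre 2 and 9 without Vil-Cre 5. It was 10 without Vil-Cre 1, Vil-Cre:NDI1 1, Vil-Cre:NDI1 3 or Vil-Cre:NDI1 4, and 10 with libraries rescaled to equal totals. Without Vil-Cre 4, Vil-Cre 5 and Vil-Cre:NDI1 1, all 10 were below 0, 0 of 10 genes were again called, Cd160 had a log2 fold change of -0.69 and Gzma turned from 0.02 to -0.16. Gzma, the one gene with a value above 0, and 8 of the other 9 changed sign under some other setting or on leaving out a mouse, and Cd160 did not.

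**Figure D2:**
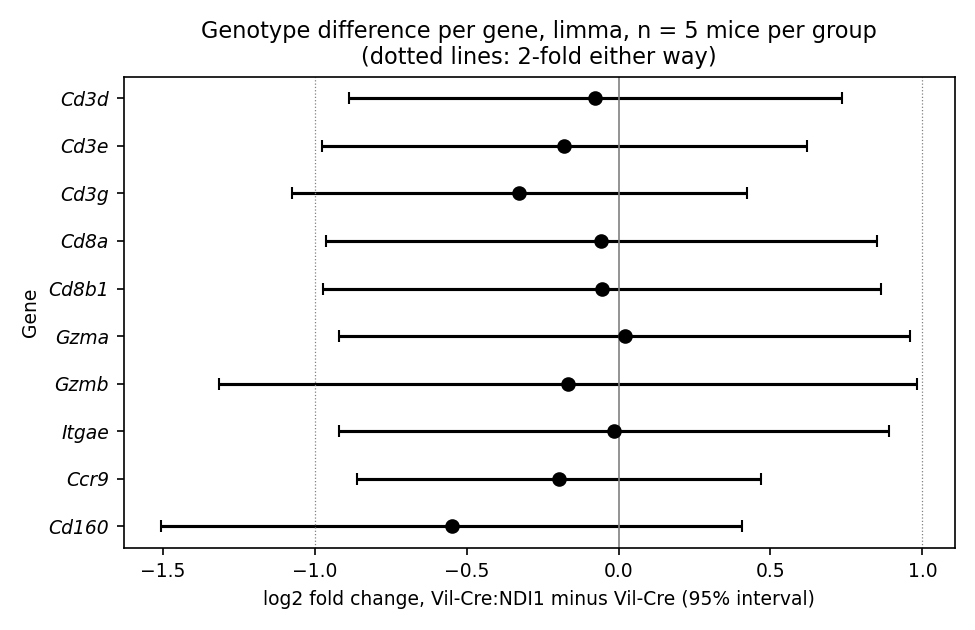
Log2 fold change of Vil-Cre:NDI1 minus Vil-Cre mice for each gene with its 95% interval (limma, n = 5 mice per group). Dotted lines mark 2-fold either way. All 10 intervals include 0, from -0.55 for Cd160 to 0.02 for Gzma.

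Over both genotypes together, each of the 10 genes varied more between mice than the median mouse gene tested. The ratio of the highest to the lowest of the 10 mice was 3.47 for Ccr9 to 8.99 for Gzmb, with a median of 4.31, where the median over mouse genes tested was 1.91. The median SD of log2 values over the 10 mice was 0.67 for the 10 genes and 0.29 for all mouse genes tested. The genes were not matched to others on level, and low counts spread more.

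Summed over the 10 genes, normalized counts were 1207, 1623, 1805, 3142 and 1077 in Vil-Cre 1 to 5 and 2807, 1009, 1789, 2715 and 671 in Vil-Cre:NDI1 1 to 5. Granzyme transcripts make up most of these sums. Vil-Cre 4, Vil-Cre:NDI1 1 and Vil-Cre:NDI1 4 were highest, and the lowest 2 were Vil-Cre:NDI1 mice. Vil-Cre:NDI1 1 and Vil-Cre:NDI1 4 were among the top 3 mice for 10 of 10 genes and Vil-Cre 4 for 9, with Cd8b1 as the exception. Vil-Cre:NDI1 2 was among the bottom 3 mice for 10 of 10 genes, Vil-Cre:NDI1 5 for 8 and Vil-Cre 5 for 6. Vil-Cre:NDI1 5 was the lowest of all for 7 genes. Vil-Cre 4 and Vil-Cre:NDI1 1 were each the highest of all for 4 genes, as the heat map of z-scores shows.

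**Figure D3:**
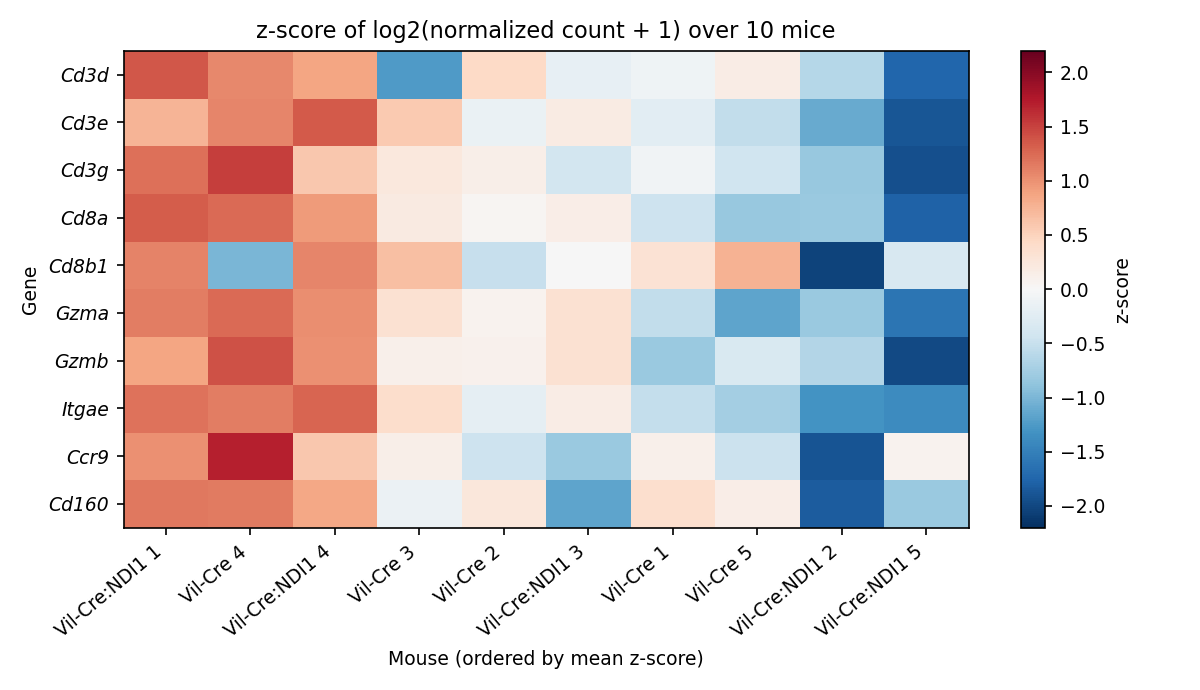
z-score of log2(normalized count + 1) for each gene over the 10 mice, with mice ordered by their mean z-score and red above the gene's mean. Vil-Cre:NDI1 1, Vil-Cre 4 and Vil-Cre:NDI1 4 are high for nearly all genes, and Vil-Cre:NDI1 2 and 5 are low. Cd8b1 departs from this order in Vil-Cre 4.

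The genes rose and fell together between mice. Over the 45 pairs, Pearson r of log2 values ranged from 0.239 to 0.986 with a median of 0.730 (n = 10 mice). A permutation test called 28 pairs for Pearson r and 32 for Spearman rho after Benjamini-Hochberg adjustment over the 45 pairs of each coefficient. All of the called pairs were among the 36 that leave out Cd8b1, where r ranged from 0.495 to 0.986 (median 0.805), and 0 of the 9 pairs with Cd8b1 were called (r from 0.239 to 0.564). The difference between these pair groups was not tested, and Cd8b1 has the fewest reads. Over the 7 libraries without Vil-Cre 4, Vil-Cre 5 and Vil-Cre:NDI1 1, 1 pair with Cd8b1 was called, that with Ccr9 (r = 0.905, exact permutation, adjusted p = 0.0249), and the median r of its 9 pairs was 0.602.

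Cd8a and Gzma followed each other most closely, with r = 0.986 and rho = 0.976 (permutation p = 1e-05 for r, the smallest that the resamples can give, and adjusted p = 0.00015 and 0.00105). Without the 2 mice farthest from the median of Cd8a, r was 0.987. Cd3e and Itgae had r = 0.962 and rho = 0.988 (permutation p = 1e-05 each, adjusted p = 0.00015 and 0.00045), and 0.977 without the 2 farthest mice. Gzma and Gzmb gave r = 0.940 and rho = 0.939 (permutation p = 2e-05 and 0.00016, adjusted p = 0.000225 and 0.00139), and 0.974 without the 2 farthest.

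The head-to-head pair Cd3d and Cd3g gave r = 0.828 and rho = 0.770 (permutation p = 0.0034 and 0.013, adjusted p = 0.009 and 0.0293), and r fell to 0.613 without the 2 mice farthest from the median of Cd3d. For the neighbours Cd8a and Cd8b1 on chromosome 6, r was 0.317 and rho 0.345 (permutation p = 0.373 and 0.330, adjusted p = 0.410 and 0.363). Ccr9 and Cd160 had r = 0.871 and rho = 0.855 (permutation p = 0.00078 and 0.00253, adjusted p = 0.00219 and 0.00712), while Ccr9 with Gzmb reached r = 0.523. After subtraction of the genotype means, 29 pairs were called. The labels give no batch. Without Vil-Cre 4, Vil-Cre 5 and Vil-Cre:NDI1 1, 17 of 45 pairs were called over 7 mice, the 36 pairs had a median r of 0.738 and ranged from 0.113 to 0.993, and Cd8a with Gzma had r = 0.993.

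**Figure D4:**
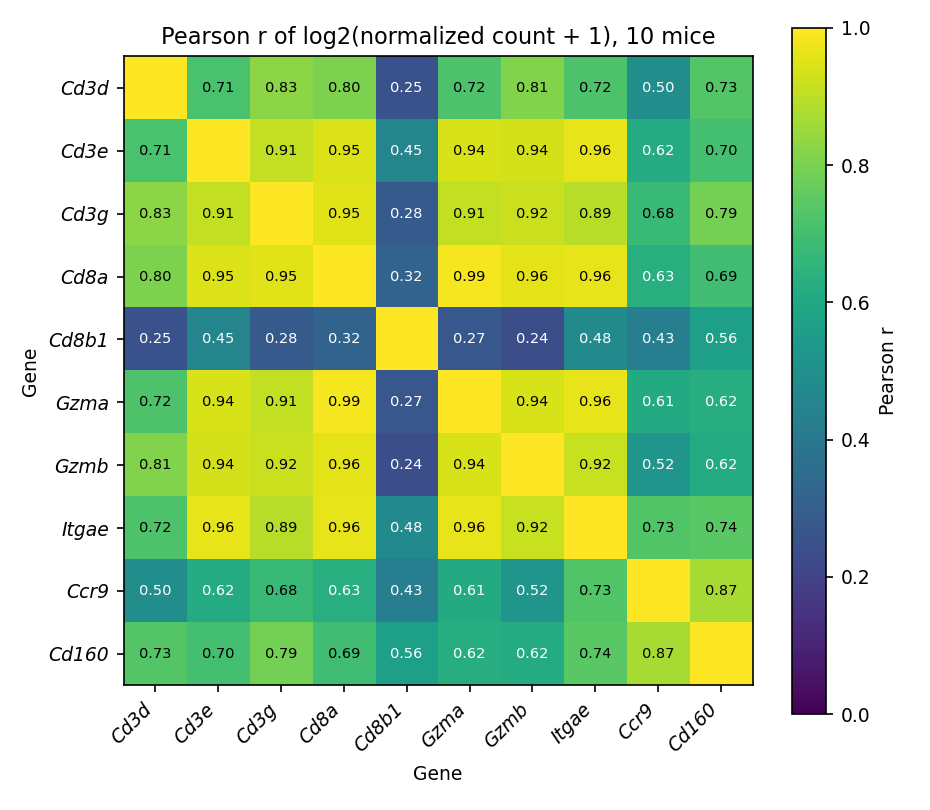
Pearson r of log2(normalized count + 1) over the 10 mice for each pair of genes. The block of Cd3e, Cd3g, Cd8a, Gzma, Gzmb and Itgae is high, Ccr9 and Cd160 pair with each other at 0.871, and the Cd8b1 row runs from 0.239 to 0.564.

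To name the genes with the most similar pattern, each of 14290 other mouse genes was correlated with the mean z-score of the 10 genes over the 10 mice. The highest were Myo1f, a myosin of haematopoietic cells (r = 0.937), Setdb1, a histone methyltransferase (0.914), Tcrg-C4, a constant region of the gamma T cell receptor (0.913), Prkch, a protein kinase C of T cells and epithelia (0.912), and Ccl5, a chemokine of cytotoxic lymphocytes (0.906). The median over all mouse genes tested was -0.01, and 10 of the other genes exceeded 0.9. When each member was set against the mean of the other 9 in the same way, Itgae and Cd8a ranked 1 of 14291, Cd3e and Cd3g ranked 2, Gzma 7 and Gzmb 14. Cd160 ranked 72, Cd3d 117, Ccr9 300 and Cd8b1 2099. All of these points share the same 10 libraries.

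The remaining genes of the lymphocyte programme were taken from 6 lists with 91 entries, of which 89 were found and 64 tested. Against 4.23% of all mouse genes, 2 of the 64 had an unadjusted p under 0.05, both lower in Vil-Cre:NDI1 mice, and 0 passed after adjustment (limma). These were Lcp2, an adaptor below the T cell receptor (44.8 ± 13.4 against 27.2 ± 12.2, SD, n = 5 each, log2 fold change -0.77, SE 0.35, exact permutation p = 0.0635), and Il2rg, the common gamma chain of cytokine receptors (63.0 ± 31.1 against 34.3 ± 17.9, log2 fold change -0.91, SE 0.38, exact permutation p = 0.0873). For both genes the adjusted p was 0.998 and the genotypes overlapped. Il2rg was highest in Vil-Cre 5, at 118, the library with the B cell transcripts.

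Among 8 tested T cell receptor chains, 3 had a higher and 5 a lower fitted value. The gamma chain constant region Tcrg-C1 was at 63.1 ± 30.7 in controls and 58.8 ± 32.6 in Vil-Cre:NDI1 mice (SD, n = 5 each), and Tcrg-C2 at 42.6 ± 19.0 and 54.9 ± 26.3. The beta chain constant regions Trbc2 and Trbc1, near-identical copies that may share reads, were at 39.2 ± 16.4 against 28.8 ± 14.4 and 24.3 ± 12.9 against 32.2 ± 29.8. Per kilobase of exon, Trdc of the delta chain stood at 0.842 ± 0.517 times Trac of the alpha chain in controls and at 1.19 ± 1.04 times in Vil-Cre:NDI1 mice, with single mice from 0.297 in Vil-Cre 5 to 2.98 in Vil-Cre:NDI1 5. The last value rests on few Trac reads, and without that mouse the ratio was 0.744 ± 0.324 in Vil-Cre:NDI1 mice (SD, n = 4), which is below the control mean. Trbc2 was highest in Vil-Cre 5, at 58.3. Transcripts of both receptor classes were present in all 10 libraries, and Trac was counted at as little as 3.52 in Vil-Cre:NDI1 5.

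Of the receptor signalling genes, 11 were tested, with 3 fitted higher and 8 lower. Lck, the kinase that phosphorylates CD3, was at 81.2 ± 28.1 in controls and 68.7 ± 36.5 in Vil-Cre:NDI1 mice, Fyn, a related kinase also made outside T cells, at 109.5 ± 17.1 and 101 ± 20.04, Thy1 at 56.1 ± 8.66 and 47.0 ± 20.04, and the phosphatase Ptpn22 at 208 ± 114 and 189 ± 76.0 (SD, n = 5 each). Lck followed the 10 genes between mice (r = 0.810 with their mean z-score, n = 10), and Fyn did not (r = -0.28). Vil-Cre 5 was the highest library for 11 of the 15 listed genes, with Lck at 115 and Ptpn22 at 373, and the sum of the list there was 2.03 times the median of the other 9. Without Vil-Cre 5, 5 were fitted higher and 6 lower, and Ptpn22 turned from lower to higher, at a log2 fold change of 0.22.

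Cytotoxic genes had 2 fitted higher and 6 lower of 8 tested. Ccl5 was at 186 ± 101 in controls and 196 ± 122 in Vil-Cre:NDI1 mice, the granule protein gene Nkg7 at 41.4 ± 17.8 and 39.2 ± 24.1, the granule proteoglycan gene Srgn at 100.2 ± 40.6 and 82.4 ± 37.3, and the protease gene Ctsw at 43.6 ± 15.8 and 52.6 ± 22.4 (SD, n = 5 each). Prf1, the pore-forming partner of granzymes, was under the filter, at 6.97 ± 4.44 and 5.93 ± 4.69. Gzma thus stood at 784 normalized counts per kilobase where Prf1 stood at 2.50.

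Of 11 tested homing and retention genes, 4 were fitted higher and 7 lower. Itgb7, the beta chain that pairs with CD103, was at 96.8 ± 37.1 in controls and 75.3 ± 46.4 in Vil-Cre:NDI1 mice, the junctional receptor gene Amica1 at 201 ± 64.96 and 206 ± 80.2, the receptor gene Gpr55 at 89.4 ± 31.1 and 81.1 ± 43.5, and S1pr1, which directs lymphocyte exit but is also made by endothelium, at 75.6 ± 41.0 and 66.5 ± 12.6 (SD, n = 5 each). Vil-Cre 5 was highest for 8 of the 15 listed genes, with S1pr1 at 148 and Itgb7 at 149.6, and its sum was 1.60 times the median of the other 9. Without it, 6 were fitted higher and 5 lower.

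In the list of transcription factors and cytokine receptors, 13 were tested, with 7 fitted higher and 6 lower. The 4 most abundant per kilobase were Zbtb7b (3018 ± 484 in controls and 3202 ± 626 in Vil-Cre:NDI1 mice), Id3 (720.4 ± 112 and 686 ± 149), Sox13 (1210.1 ± 191 and 1355 ± 154) and Id2 (300.4 ± 48.6 and 302 ± 23.3, SD, n = 5 each). Their r with the mean z-score of the 10 genes was -0.08, -0.16, -0.62 and 0.25 (n = 10). It was 0.879 for Il2rb, the receptor chain for interleukin 2 and 15, which was named after its value was seen. Over the 13 tested genes, r ran from -0.62 for Sox13 to 0.879 for Il2rb. It was 0.573 for Il7r, 0.352 for Bcl11b and 0.008 for Tcf7.

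The epithelial side was measured in the same libraries through 17 genes for ligands and cytokines of these lymphocytes, of which 13 were tested, 10 fitted higher and 3 lower, and 0 passed. Markers of the epithelium moved with them, since 11 of 11 enterocyte genes (median log2 fold change 0.24) and 5 of 7 epithelial genes were fitted higher in Vil-Cre:NDI1 mice and 0 passed. Vil-Cre 5 was the lowest library for 9 of the 11 enterocyte genes. Without it, 10 of 11 were fitted higher with a median of 0.12, and the ligand genes stayed at 10 higher and 3 lower. Vil-Cre:NDI1 5, the lowest mouse for 7 of the 10 lymphocyte genes, was the highest library for 7 of the 11 enterocyte genes. It was also the highest for 5 of the 7 epithelial genes, and these lists are not given without it. The part of the epithelial markers in the ligand values was not tested. Cdh1, E-cadherin and the ligand of CD103, was at 9061 ± 925 in controls and 9523 ± 839 in Vil-Cre:NDI1 mice. The butyrophilin-like genes Btnl6 and Btnl2, members of a family that sustains gut gamma-delta T cells, were at 3745 ± 393 against 4015 ± 66.2 and at 2136 ± 494 against 2259 ± 253. H2-T3, which encodes the thymus leukaemia antigen bound by CD8 alpha-alpha, was at 2282 ± 660 and 2262 ± 237 (SD, n = 5 each).

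Ccl25, the Ccr9 ligand, and Tnfrsf14, which encodes the Cd160 ligand, were added as partners of members after their values had been seen. Ccl25 was at 4585 ± 515 in controls and 4852 ± 458 in Vil-Cre:NDI1 mice, a log2 fold change of 0.08 (SE 0.10), and Tnfrsf14 at 117 ± 44.9 and 105 ± 23.9, a log2 fold change of -0.09 (SE 0.28). The highest mouse exceeded the lowest by 1.39 times for Ccl25 and 1.34 times for Cdh1, where the ratio was 3.47 for Ccr9 and 3.78 for Itgae. Tnfrsf14 had a ratio of 2.71 and Cd160 one of 5.38. These receptor genes had a wider range between mice than their ligand genes, but they also had fewer reads. Ccr9 had 24 to 75 reads per library and Ccl25 4014 to 5467. Low counts spread more from counting error, so the ratios do not compare genes at a like level. The difference in spread was not tested.

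Markers of other cells that could lie in the tissue moved with the lymphocyte genes in some libraries. The sum of 6 defining T cell markers, of which 3 are the CD3 genes, was 278 to 472 in the control group and 137 to 468 with NDI1, and none was at 0 in all libraries. The sum of 5 plasma cell genes was highest in the high libraries Vil-Cre:NDI1 1 and Vil-Cre 4, at 4899 and 4106, and lay between 1470 and 2773 in the other 8. In these same 2 libraries the smooth muscle sum was lowest, and the sum of 5 adipocyte genes was 259 and 127 against 322 to 1785. Vil-Cre:NDI1 4, the other high library, had a smooth muscle sum of 18536 and an adipocyte sum of 969, inside the range of the rest. Vil-Cre:NDI1 5, the lowest mouse for 7 of the 10 genes, had a smooth muscle sum of 25034. Its sums of 11 enterocyte genes (747865) and 7 epithelial genes (153266) were the highest of the 10 libraries. For the 6 smooth muscle genes, r with the mean z-score of the 10 genes was -0.764 (Des) to -0.650 (Myh11). For the 4 tested adipocyte genes it was -0.545 to -0.309 (n = 10 mice). The part of these differences in the lymphocyte values was not tested.

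Vil-Cre 5 stood apart in another way. The sum of 11 markers of CD4+ helper, regulatory and follicular T cells was 387 there and 18.8 to 113 in the other 9, while the 10 genes were mostly low, with 6 of 10 in the bottom 3. The B cell factor gene Pax5 was at 624 in this library and at 0 to 12.7 elsewhere. The sum of 11 enterocyte genes was 379220 there and 539749 to 747865 in the others. The sum of 10 macrophage and dendritic cell genes was 1444 there, with 414 to 1199 elsewhere, and Lyz2 led it at 759. Among the other libraries this sum was highest in Vil-Cre:NDI1 1 and Vil-Cre 4, at 976 in the latter, and lowest in Vil-Cre:NDI1 2 and Vil-Cre:NDI1 5, at 414 and 439. Of the 8 tested macrophage and dendritic cell genes, the complement gene C1qa and the receptor gene Csf1r followed the 10 lymphocyte genes most closely. Their r with the mean z-score of the 10 genes was 0.863 and 0.801 (n = 10 mice that share the library and its tissue mix). It was 0.735 for C1qc, 0.689 for Itgax, 0.688 for C1qb and 0.676 for Adgre1, but 0.210 for Lyz2 and 0.106 for Cd68. The part of these relations in the lymphocyte values was not tested.

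The summed lists of mast cells (139 to 328, led by Kit), endothelium (440 to 627, led by Pecam1) and 7 epithelial genes (99946 to 153266, led by Krt8) are given with their range over the 10 libraries. The map of marker sums shows 8 of the lists by mouse.

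**Figure D5:**
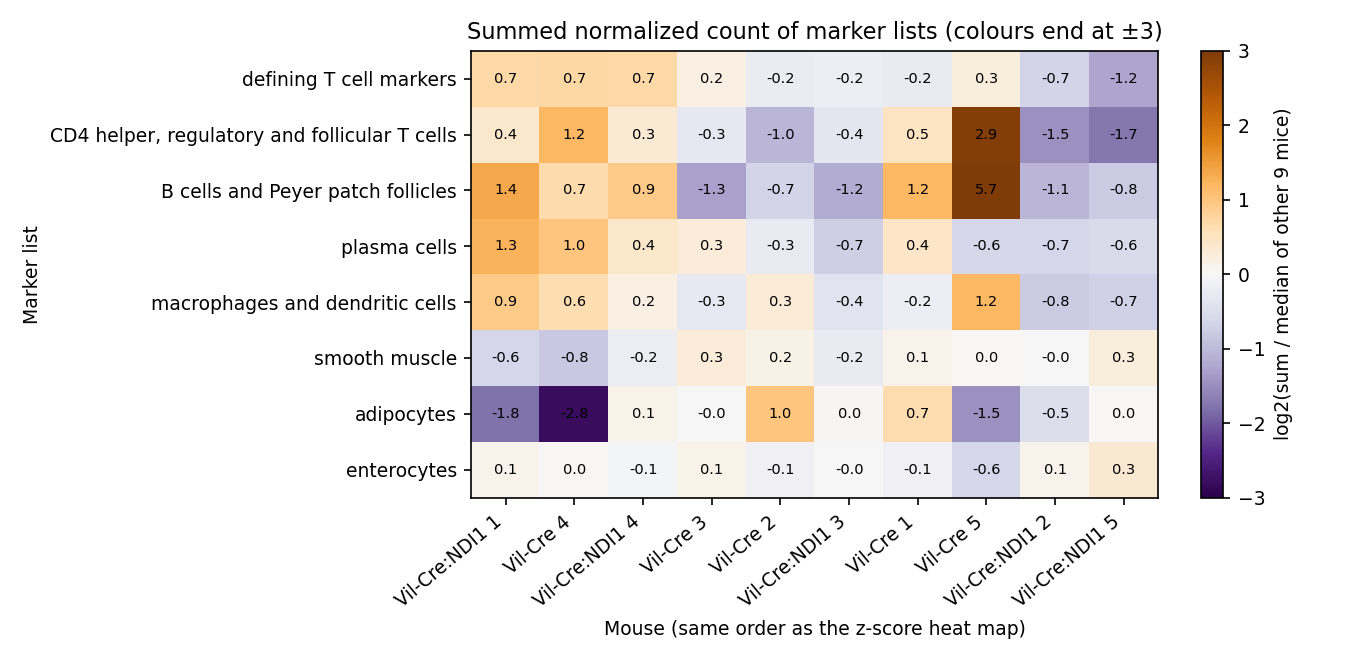
Summed normalized count of 8 marker lists in each mouse, as log2 of the sum over the median of the other 9 mice, with mice in the order of the lymphocyte genes. T cell and plasma cell sums are high at the left, smooth muscle and adipocyte sums are low in Vil-Cre:NDI1 1 and Vil-Cre 4, and the B cell sum of Vil-Cre 5 exceeds the colour scale.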

How the data were processed

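RNA was extracted from flushed jejunum of 5 controls (Vil-Cre) and 5 Vil-Cre:NDI1 mice, and each library is a separate mouse. For the deposited table, the authors used trimGalore! for trimming of single-end reads, STAR for alignment to GRCm38 plus NDI1, Salmon for gene assignment and DESeq2 for 1 size factor per library, by which counts were divided. The deposited values are thus a signal (normalized counts), and not raw counts. In each library 100% of non-zero values were whole multiples (tolerance 0.01 read) of the value of 1 read, although for Vil-Cre 3 and Vil-Cre 4, whose value is near 1, this cannot be told apart from rounding. The annotation release and strand setting are not given in the sources used here, and gene spans were taken from GENCODE M21.

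Genotypes were compared with limma 3.58.1 (R 4.3.3, eBayes with a variance trend) on log2(value + 1), which understates fold changes of low genes. Features that reached 10 in 5 or more mice were tested (14301), two-sided, with Benjamini-Hochberg adjustment over all of them and a threshold of 0.05. The 10 genes passed this filter. Single genes were also compared with exact permutation tests, and pairs of genes with 100000 permutations. Reads per gene differed between replicates by at least 12.1 times sampling noise (chi-square per gene), so all 10 libraries were kept as separate samples. DESeq2 1.42.0 and edgeR 4.0.16 on recovered reads, 2 other pseudocounts (0.1 and 8), other filters, scalings and weights, a replicate block and leaving out each mouse were alternatives, and the 7 libraries without Vil-Cre 4, Vil-Cre 5 and Vil-Cre:NDI1 1 were added after seeing the data. limma was tested on simulated data (14082 genes). There it called 26.9% of 1.5-fold, 55.2% of 2-fold and 87.9% of 4-fold changes. The changed genes were drawn from all genes and were not matched to the 10. The genes and lists were chosen with earlier results of these data known. Named genes were the 10 members, NDI1, the 4 tested genes with the highest mean per kilobase of exon in each of 6 lists and any list gene past the threshold, the total and top gene of each of 12 marker lists (the result of 1 of them is not reported here), and the 5 other genes most like the members. Lcp2, Il2rg, Il2rb, Trac, Trdc, Prf1, Ccl25, Tnfrsf14, Runx3, Gzmk, Des, C1qa, Csf1r, the other tested macrophage and dendritic cell genes and genes that overlap members were named after their values were seen. The same holds for Il7r, Bcl11b and Tcf7.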

Additional observations from a re-analysis of the deposited data

Results flagged for a closer look

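In groups of 5 mice, the highest or lowest value was marked where its gap to the nearest other mouse took up more of the group's range than Dixon's 95% limit allows. This happened 12 times in 98 groups, where about 1 in 20, or 4.9, would be given by chance for independent groups of normal values. The rule was applied to normalized counts without a log2 step. The genes were read in the same mice and many vary together, so 4.9 is only a rough guide.

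Among the 10 lymphocyte genes, Vil-Cre 4 lay above the other 4 controls for Cd3g (162, others 70.9 to 94.2), Gzmb (813, others 193 to 353) and Ccr9 (75.8, others 35.9 to 44.1). The gamma receptor gene Tcrg-C1 was at 117 in Vil-Cre 4 (others 42.7 to 57.0) and at 115 in Vil-Cre:NDI1 1 (others 33.7 to 55.2). These are the libraries with the lowest smooth muscle sums, and the part of that in the values was not tested.

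Of the epithelial ligand genes, Btnl6 was at 4414 in Vil-Cre 4 (others 3371 to 3668). Btnl2 was at 1807 in Vil-Cre:NDI1 4 (others 2350 to 2389) and H2-T3 at 1849 (others 2317 to 2453), both lower than in the other 4 mice of that genotype.

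In Vil-Cre 5, Pax5 was at 624 (others 0 to 3.03), Lyz2 at 759 (others 143 to 181) and S1pr1 at 148 (others 47.5 to 68.9). Pax5 was at 12.7 in Vil-Cre:NDI1 4 (others 0.911 to 1.17).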

How the results depend on the processing

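In every alternative run, 0 of the lymphocyte genes tested were called, although a filter of 50 left 6 of the 10 to test. The count of features called was 1 with limma as reported and with edgeR, 2 with array weights, 2 with the filter of 50, 2 without Vil-Cre 4, Vil-Cre 5 and Vil-Cre:NDI1 1 (chosen after seeing the data), 31 with DESeq2, 269 with DESeq2 on 8 libraries without Vil-Cre 3 and Vil-Cre 4, and from 1 to 3 on leaving out each mouse (3 without Vil-Cre:NDI1 5, 2 without Vil-Cre:NDI1 1). The cause was not tested. The count of called pairs of genes was 28, 17 over those 7 libraries (fewer samples) and 20 to 30 on leaving out each mouse.

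Log2 fold changes of the 10 genes turned sign in 45 of 200 values, leaving out 36 from 4 settings (replicate block, no variance trend and both other filters) that leave the fold change as it is. With DESeq2 they turned to 0.0024 for Cd3d, 0.064 for Cd8a, 0.031 for Cd8b1 and 0.12 for Itgae, and with edgeR to 0.060 for Cd8a, 0.020 for Cd8b1 and 0.12 for Itgae. Without Vil-Cre 3 and Vil-Cre 4, DESeq2 gave 0.00071 for Cd3d, 0.28 for Cd3e, 0.060 for Cd3g, 0.47 for Cd8a, 0.51 for Gzmb, 0.56 for Itgae and 0.11 for Ccr9. On the same 8 libraries, edgeR gave 0.27 for Cd3e, 0.056 for Cd3g, 0.46 for Cd8a, 0.51 for Gzmb, 0.56 for Itgae and 0.10 for Ccr9. Array weights gave 0.015 for Gzmb. Gzma turned to -0.043 with libraries rescaled to equal totals, which moved the median of all genes to -0.06, and to -0.16 over the 7 libraries.

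On leaving out each mouse, the log2 fold change ran from -0.28 to 0.17 for Cd3d, from -0.41 to 0.091 for Cd3e, from -0.30 to 0.26 for Cd8a, from -0.22 to 0.24 for Cd8b1, from -0.20 to 0.33 for Gzma, from -0.42 to 0.27 for Gzmb, from -0.25 to 0.23 for Itgae and from -0.34 to 0.0081 for Ccr9. It stayed below 0 for Cd3g (-0.55 to -0.08) and Cd160 (-0.84 to -0.26). The replicate numbers did not pair the mice (correlations from -0.12 to 0.136), and with a replicate block 1 feature and 0 lymphocyte genes were called. Cd8b1 had 4 to 16 reads per library.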

Other observations

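Runx3, a transcription factor of CD8+ T cells that is known to act on Itgae, was among the listed regulators and was singled out after its values were seen. Its normalized counts were 27.1, 40.5, 36.1, 122 and 51.5 in Vil-Cre 1 to 5 and 875, 10.0, 18.4, 110.7 and 11.7 in Vil-Cre:NDI1 1 to 5. Vil-Cre 4, Vil-Cre:NDI1 1 and Vil-Cre:NDI1 4 were highest, as for the lymphocyte genes, and its r with their mean z-score was 0.868 over 10 mice. The value of 875 stands far above the others, in a library where Cd8a was at 333 and Itgae at 217.

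Gzmk, a further granzyme gene, was at 13.1 ± 5.89 in controls and 6.15 ± 6.05 in Vil-Cre:NDI1 mice (SD, n = 5 each), a log2 fold change of -1.16 (SE 0.56, exact permutation p = 0.135, limma adjusted p = 0.998). Gzmk reached the filter of 10 only in Vil-Cre 1, 2, 4 and 5 and in Vil-Cre:NDI1 1. It thus passed mostly through the group where it is high, so the test cannot decide on a difference. Vil-Cre:NDI1 2 to 5 had 2 to 6 reads, with 3 reads (2.94) in Vil-Cre:NDI1 4, where Gzma was at 1203. Il7, a cytokine gene for lymphocytes, was at 26.1 ± 17.3 and 12.6 ± 14.9, with single mice from 4.56 to 52.5. Il7 reached 10 only in Vil-Cre 2 to 5 and in Vil-Cre:NDI1 4, so it too passed the filter mostly through controls.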
